A study of Mus musculus with 6 samples.

Results

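Transcript levels of the enzymes that write, copy and erase DNA methylation were compared between mouse epiblast-like cells (EpiLC) and mouse embryonic stem cells (mESC) and after 2 kinase inhibitors. The genes were Dnmt1, Dnmt3a, Dnmt3b, Dnmt3l, Uhrf1, Tet1, Tet2 and Tet3, chosen by name with earlier results of these data known. All 8 were measured, each by 1 array probe, out of 22180 genes in all. EpiLC resemble the epiblast soon after implantation and had been induced from EB3 mESC for 2 days in N2B27 medium that held Activin A at 20 ng/ml and bFGF at 12 ng/ml, whereas mESC were kept in N2B27 with LIF and BMP4. Each state was left untreated, was given 3 µM CHIR99021 (CHIR, which blocks GSK3 and thereby activates beta-catenin) for 24 hours, or was given 3 µM CHIR with 1 µM PD0325901 (PD, which blocks MEK, upstream of ERK) for 24 hours. No culture had PD without CHIR, and it is not stated how the 24 hours lay within the induction of EpiLC. Each of the 6 groups was 1 array of 1 culture of a single cell line, so a difference between 2 arrays has no error and no p-value.

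Methylation of cytosine at CpG dinucleotides is set by the de novo methyltransferases Dnmt3a and Dnmt3b, with Dnmt3l as a cofactor that has no catalytic activity of its own. It is copied to the new strand after replication by Dnmt1, which Uhrf1 brings to hemimethylated DNA. The dioxygenases Tet1, Tet2 and Tet3 oxidise methylated cytosine and so open a way to its removal. In mouse, the genome of naive pluripotent cells gains methylation as the epiblast implants, and stem cells held with inhibitors of GSK3 and MEK are known for low methylation. The arrays measured transcripts, not methylation or protein.

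The deposited values are linear array intensities, with nearly equal quartiles on all arrays. Median intensity lay between 60.55 and 65.17 on the 6 arrays and the lower quartile between 32.49 and 35.23, and no value lay under 16. Differences of a gene near this lowest value are compressed. All 9 naive markers of mESC fell in EpiLC in the limma fit, and 4 of 7 markers of EpiLC rose. Of all genes, 4.15% fell and 4.15% rose. All 6 feedback genes of ERK signalling, the pathway that PD blocks, were at least 2-fold lower with CHIR and PD than with CHIR. This held in EpiLC as in mESC, where 1.01% and 0.523% of all genes were lower by as much. Of 6 Wnt target genes, 3 were at least 2-fold higher with CHIR in EpiLC, and 3 in mESC (1.77% and 0.185% of all genes). Primitive streak and mesoderm genes stood out most on 1 array. Their summed intensity over 11 genes was 17644 in EpiLC with CHIR, against 1097 in untreated EpiLC, 1859.6 in EpiLC with CHIR and PD, and between 701 and 1442 in the 3 mESC cultures. In mESC with CHIR, 4 of the 11 were at least 2-fold higher than untreated and 0 lower (0.185% and 0.153% of all genes). They were Mixl1 (321 against 33.0), Cdx1 (258 against 28.6), Cdx2 (273 against 110.5) and Hoxb1 (87.7 against 27.2).

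The promoter windows of the 5 genes that differed at least 2-fold in any pair of arrays are shown here because the results turn on these genes and because their CpG content differs widely. Each window runs from 250 bases before to 50 after a RefSeq transcript start (GRCm38.p6). Where a gene has several starts, the window with the most CpG is shown. The sequences are written 5′ to 3′ on the strand of the gene, with each CpG dinucleotide, the substrate of these enzymes, in capitals. The windows lie at chr12:3806910-3807209 (plus strand), chr2:153649199-153649498 (plus strand), chr10:78042037-78042336 (plus strand), chr10:62887275-62887574 (minus strand) and chr3:133544341-133544640 (minus strand), in the order of the sequences.
Dnmt3a: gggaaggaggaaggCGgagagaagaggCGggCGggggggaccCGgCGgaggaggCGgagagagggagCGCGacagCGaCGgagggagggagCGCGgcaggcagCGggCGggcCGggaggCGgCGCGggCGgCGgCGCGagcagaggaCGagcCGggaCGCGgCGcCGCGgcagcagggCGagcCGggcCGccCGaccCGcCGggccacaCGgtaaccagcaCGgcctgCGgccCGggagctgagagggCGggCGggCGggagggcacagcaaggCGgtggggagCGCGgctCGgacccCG
Dnmt3b: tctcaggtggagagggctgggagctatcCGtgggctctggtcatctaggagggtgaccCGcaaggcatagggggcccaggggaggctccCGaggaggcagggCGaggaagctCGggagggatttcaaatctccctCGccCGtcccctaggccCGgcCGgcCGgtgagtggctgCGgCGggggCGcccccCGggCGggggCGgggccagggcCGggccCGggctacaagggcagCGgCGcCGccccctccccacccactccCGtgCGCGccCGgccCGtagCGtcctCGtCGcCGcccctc
Dnmt3l: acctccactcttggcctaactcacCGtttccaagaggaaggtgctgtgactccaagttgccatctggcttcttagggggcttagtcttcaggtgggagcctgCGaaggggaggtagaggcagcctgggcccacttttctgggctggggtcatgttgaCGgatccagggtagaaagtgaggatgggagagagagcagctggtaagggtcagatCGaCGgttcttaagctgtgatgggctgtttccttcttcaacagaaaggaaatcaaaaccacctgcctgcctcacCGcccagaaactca
Tet1: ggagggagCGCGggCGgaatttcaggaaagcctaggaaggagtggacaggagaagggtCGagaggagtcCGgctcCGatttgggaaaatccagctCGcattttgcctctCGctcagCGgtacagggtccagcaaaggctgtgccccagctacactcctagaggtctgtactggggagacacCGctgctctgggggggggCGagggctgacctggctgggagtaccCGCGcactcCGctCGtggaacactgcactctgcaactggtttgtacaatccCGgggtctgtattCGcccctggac
Tet2: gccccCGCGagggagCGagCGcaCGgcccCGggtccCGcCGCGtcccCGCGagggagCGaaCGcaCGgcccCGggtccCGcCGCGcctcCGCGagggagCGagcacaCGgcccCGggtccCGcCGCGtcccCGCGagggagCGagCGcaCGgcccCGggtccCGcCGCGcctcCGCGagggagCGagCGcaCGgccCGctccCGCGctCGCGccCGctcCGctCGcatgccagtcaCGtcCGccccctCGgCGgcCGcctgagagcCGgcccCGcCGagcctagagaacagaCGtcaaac

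These windows hold 47 CpG for Dnmt3a, 30 for Dnmt3b, 6 for Dnmt3l, 17 for Tet1 and 57 for Tet2. The median over 20611 windows of 16990 measured genes was 13, with every start counted and not only the richest of a gene. RefSeq gives 3 starts each for Dnmt3a, Dnmt3l and Dnmt1, 2 for Uhrf1 and 1 for each of the others, 15 windows in all. None of the 3 Dnmt3l windows holds more than 6 CpG (percentiles 20.2 to 33.4 of all windows), whereas the Tet2 window is at percentile 99.8. Among the starts of Dnmt3a, the window furthest downstream holds 18 CpG. The array has 1 probe per gene here, so the starts in use cannot be read from it. Matches to 3 short motifs were counted on both strands. GGGCGG, the GC box, lies in 12 of the 15 windows and in 46.5% of all windows. CTTTGA, the core of Tcf/Lef sites, lies in 1 of the 15, an upstream Dnmt1 window, and in 14.6% of all windows. CCGGAAG, an Ets site, lies in 0 of the 15 and in 11.4% of all windows. No motif is part of another, and a match is a run of letters, not a bound site.

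**Figure D1:**
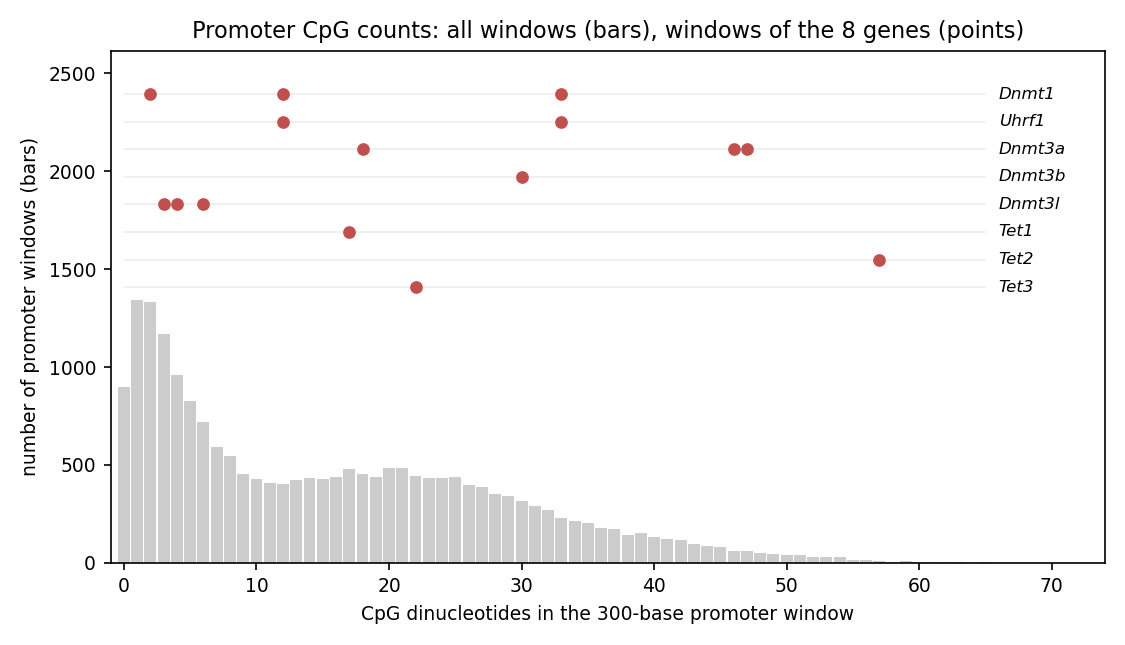
Number of CpG dinucleotides in promoter windows of 300 bases (horizontal axis). Grey bars count all 20611 windows (vertical axis), and each red point is 1 window of the gene named at the right, with the height of a point only separating the genes. The 3 Dnmt3l windows lie between 3 and 6 CpG and the Tet2 window at 57.

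Between the states, the de novo enzyme Dnmt3a was higher in EpiLC and its cofactor Dnmt3l and the dioxygenases Tet1 and Tet2 were lower. Dnmt3b, Tet3 and the maintenance genes Dnmt1 and Uhrf1 did not pass the test. Over the 3 treatments, 1 of the 8 genes rose in EpiLC (Dnmt3a) and 3 fell (Dnmt3l, Tet1 and Tet2) in a limma fit of state and treatment, at an adjusted p under 0.05. Of all genes, 4.15% rose and 4.15% fell in that fit, 8.3% in either direction. The median log2 difference of the 8 genes was -0.37, against -0.02 over all genes. Intensities of 5 of the 8 genes did not overlap between the 3 EpiLC and the 3 mESC arrays, namely Tet3, which was higher in EpiLC, and Dnmt1, Uhrf1, Tet1 and Tet2, which were lower. The arrays did not overlap for 26.8% of all genes either (EpiLC higher for 12.4%, lower for 14.4%). The residual of the fit is the departure from additive effects on 2 degrees of freedom, with 3 arrays per state, and without moderation of the variances 0 of the 8 genes passed (adjusted p between 0.248 and 0.32 for these 4, limma). Counted by single pairs, a 2-fold difference was reached upwards by 2 and downwards by 3 of the 8 genes in untreated EpiLC (by 1.47% and 2.3% of all genes). With CHIR, 0 were higher and 3 lower in EpiLC by as much (2.45% and 2.63% of all genes), and with CHIR and PD 1 was higher and 3 were lower (3.29% and 3.11%). Over the 6 arrays Dnmt3l had the widest log2 range (4.58), followed by Tet2 (3.40), Tet1 (2.65), Dnmt3b (2.62) and Dnmt3a (2.36), at percentiles between 97.8 and 99.8 of all genes, whereas Uhrf1 (0.83), Tet3 (0.43) and Dnmt1 (0.37) moved within less than 2-fold. Fewer cells of a type and less RNA per cell cannot be told apart in these bulk samples.

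**Figure D2:**
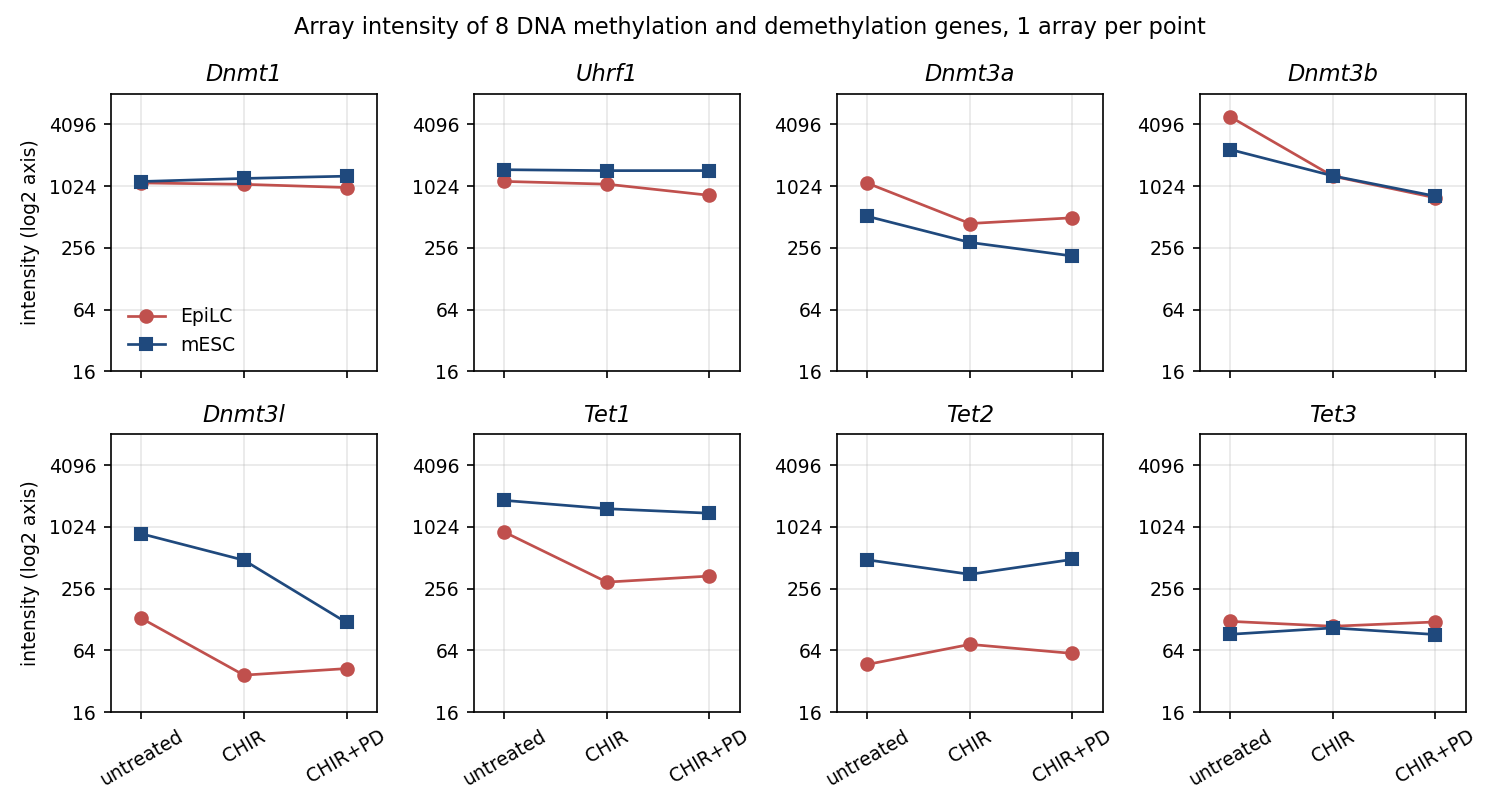
Array intensity (vertical axis, log2 scale) of the 8 genes in EpiLC (circles) and mESC (squares), untreated, with CHIR and with CHIR and PD (horizontal axis), 1 array per point. Dnmt1 and Tet3 stay nearly level, Dnmt3b lies at nearly the same intensity in both states with CHIR, and the Tet2 lines stay far apart.

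Dnmt3a, a de novo methyltransferase, was higher in EpiLC under each treatment. In EpiLC its intensity was 1094 untreated, 442 with CHIR and 503 with CHIR and PD. In mESC it was 520.1 untreated, 289 with CHIR and 213 with both. The ranges of the states overlapped, because both EpiLC cultures with inhibitor lay under untreated mESC. Compared pair by pair, EpiLC was higher by 1.07, 0.61 and 1.24 on the log2 scale in the untreated, CHIR and CHIR with PD pairs. Over the 3 pairs Dnmt3a rose by 0.97 (SE 0.15, limma adjusted p = 0.0187). The call was lost without the untreated pair of arrays (0.93, limma adjusted p = 0.073).

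Dnmt3b, the other de novo methyltransferase and a marker of the formative epiblast, was higher in EpiLC only in the untreated pair, as far as single arrays show. It was at 4847 in untreated EpiLC and 2327 in untreated mESC, a log2 difference of 1.06. With CHIR it was at 1279 in EpiLC and 1289 in mESC, and with CHIR and PD at 788 in EpiLC and 817 in mESC. The log2 differences of these pairs were -0.01 and -0.05, so the states were at nearly the same intensity in both inhibitor pairs. Over the 3 pairs Dnmt3b did not pass the limma threshold (0.33, SE 0.24, adjusted p = 0.465), and without the untreated pair the estimate was -0.03.

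Dnmt3l, the cofactor of both de novo enzymes, was lower in EpiLC in all 3 pairs. In EpiLC it was at 131 untreated, 36.65 with CHIR and 42.5 with CHIR and PD. In mESC it was at 875 untreated, 484 with CHIR and 119 with both inhibitors. The state ranges met, since mESC with both inhibitors lay just under untreated EpiLC. The 2 EpiLC values with inhibitor are close to the lower quartile of their arrays (32.8 and 32.5). Dnmt3l fell by 2.65 over the 3 pairs (SE 0.39, limma adjusted p = 0.0178), with -2.74, -3.72 and -1.49 in the untreated, CHIR and CHIR with PD pairs. Without the untreated pair the estimate was -2.61 and missed the limma threshold (adjusted p = 0.0742). With an offset of 64 instead of 16 under the logarithm, which compresses dim values more, the difference was -2.65 instead of -3.72 in the CHIR pair and -0.89 instead of -1.49 in the pair with both inhibitors. Dnmt3l thus ran opposite to Dnmt3a between the states in every pair.

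Tet1 and Tet2, which are both expressed in mouse naive stem cells, were lower in EpiLC without overlap. Tet1 was at 909, 296 and 339 in EpiLC (untreated, CHIR, CHIR with PD) and at 1852, 1536 and 1389 in mESC. It fell by 1.81 (SE 0.26, limma adjusted p = 0.0161), and the pairs gave -1.03, -2.38 and -2.04. The untreated pair was close to the 2-fold line and came to -0.99 with the offset of 64. Tet2 was at 46.6, 73.1 and 59.7 in EpiLC and at 487, 352 and 493 in mESC. The EpiLC values of Tet2 lay around the array medians, whereas every mESC value was far above. Tet2 fell by 2.90 (SE 0.22, limma adjusted p = 0.00326), with -3.39 in the untreated pair, -2.27 with CHIR and -3.05 with both. The pair values of -3.39, -2.27 and -3.05 became -2.50, -1.72 and -2.33 with the offset of 64.

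Tet3, the Tet enzyme of the oocyte and zygote, was at 123, 109.8 and 121 in EpiLC and at 91.7, 106 and 91.2 in mESC. The EpiLC values were higher without overlap, but the difference of 0.29 (SE 0.12) did not pass (limma adjusted p = 0.216). The 3 Tet genes therefore took both signs, with Tet1 and Tet2 negative and Tet3 positive in all 3 pairs.

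Dnmt1, the maintenance methyltransferase, kept nearly the same intensity in all cultures. It was at 1100.7, 1067 and 993 in EpiLC and at 1136, 1217 and 1281 in mESC, a log2 range of 0.37 over the 6 arrays, which is smaller than that of most genes (percentile 29.5). The state difference was -0.20 (SE 0.11, limma adjusted p = 0.35). Uhrf1, its recruiting factor, was at 1139, 1070.0 and 833 in EpiLC and at 1481, 1450.4 and 1451 in mESC. The 3 mESC values of Uhrf1 lay within 0.03 of each other on the log2 scale, and all 3 EpiLC values were lower, with log2 differences of -0.38 in the untreated pair and -0.80 with both inhibitors. The fit gave -0.54 (SE 0.12, limma adjusted p = 0.0596), which did not pass, but it passed with trend and robust moderation (adjusted p = 0.0264, limma).

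**Figure D3:**
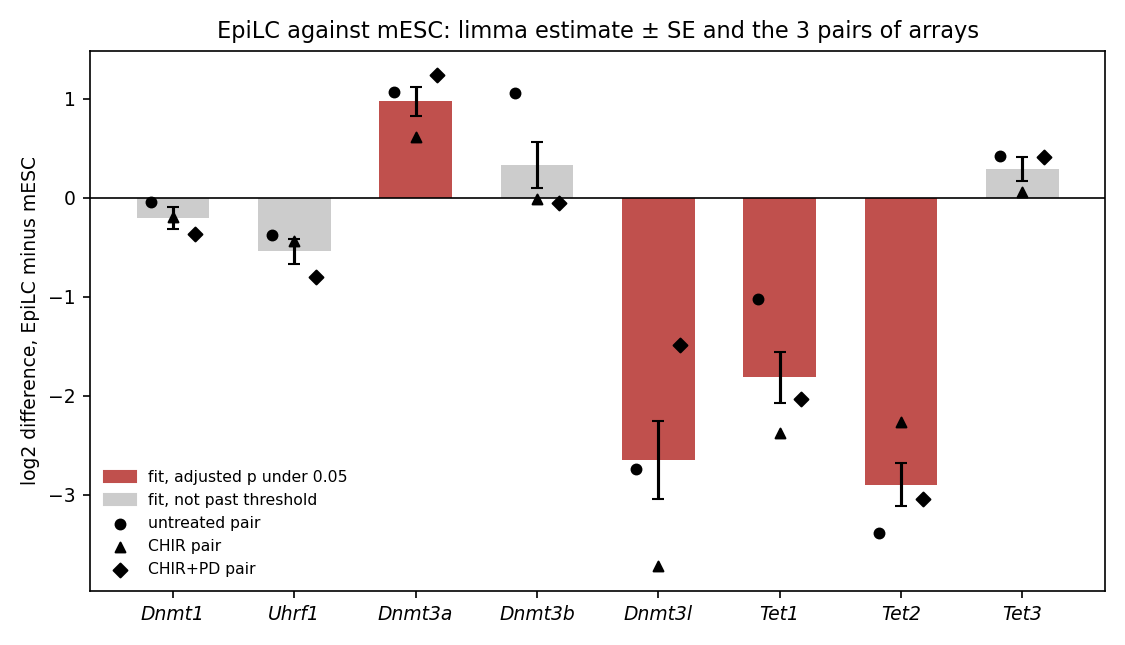
Log2 difference of EpiLC minus mESC (vertical axis) for the 8 genes (horizontal axis). Bars give the limma estimate over 3 pairs of arrays with its SE, red where the adjusted p is under 0.05 and grey otherwise, and black symbols give the single pairs. Dnmt3a is above 0 and Dnmt3l, Tet1 and Tet2 are below 0 in all 3 pairs, while the Dnmt3b pairs lie at 1.06, -0.01 and -0.05.

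Dnmt3a, Dnmt3b and Dnmt3l were lower with CHIR than untreated in both states. The differences were larger in size in EpiLC, on 1 pair of arrays per state and without a test of that contrast between the states. In EpiLC, 4 of the 8 genes were lower by 2-fold or more and 0 were higher, where 0.929% of all genes were lower and 1.77% higher by as much. In mESC, 0 of the 8 genes reached 2-fold in either direction, where 0.153% of all genes were lower and 0.185% higher by as much. Dnmt3b was at 1279 in CHIR-treated EpiLC, against 4847 in untreated EpiLC, a log2 difference of -1.92. Its difference in mESC was -0.85. Dnmt3l differed by -1.84 in EpiLC and by -0.86 in mESC, and the EpiLC value was -1.08 with the offset of 64. Dnmt3a differed by -1.31 in EpiLC and by -0.85 in mESC. The median over the 8 genes was -0.73 in EpiLC and -0.37 in mESC, against -0.03 and -0.0019 over all genes. The mESC values of the de novo genes lay within 0.02 of each other, with CHIR-treated mESC at 55.6%, 55.4% and 55.2% of the untreated intensity for Dnmt3a, Dnmt3b and Dnmt3l.

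Tet1 was at 296 in CHIR-treated EpiLC, against 909 in untreated EpiLC (log2 difference -1.62), while in mESC the difference was -0.27. Tet2 took opposite signs, at 0.65 in EpiLC and -0.47 in mESC, with the EpiLC value at 0.36 with the offset of 64. Dnmt1, Uhrf1 and Tet3 differed by no more than 0.21 in size in either state. The EpiLC culture with CHIR had the highest sum of streak and mesoderm genes, of which 9 of 11 were at least 2-fold higher than in untreated EpiLC. None of the 11 was at the lowest array value in any culture. In untreated EpiLC, however, Cdx1 (20.4), Cdx2 (32.0) and Aplnr (33.7) lay under the lower quartile of the array (34.5). The summed intensity of 7 primitive endoderm genes was also highest there (1605, against 633 in untreated EpiLC), and 2 of 6 core pluripotency genes were at least 2-fold lower, with a sum of 3339.6, against 7334 in untreated EpiLC. Of 7 markers of EpiLC, 3 were at least 2-fold lower and 1 higher (0.929% and 1.77% of all genes). The lower ones were Otx2, Pou3f1 and Sall2, and the higher was Cdh2. Their sum was 3387, against 3848 in untreated EpiLC. The sum of 8 fibroblast genes was 6437, against 3092.5 in untreated EpiLC, with 2 of the 8 higher and 1 lower by 2-fold. The higher ones were Fn1 (3264 against 918) and Vim (2521 against 1118), and the lower was Acta2 (253 against 613). The others, among them Col1a1 (165 against 198), differed by less than 2-fold. The part of these marker genes in the differences was not tested. In EpiLC with CHIR and PD, 4 of the 11 streak and mesoderm genes exceeded untreated EpiLC by 2-fold or more and 1 was lower by as much.

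Over both states together, 0 of the 8 genes and 0 of 22180 genes (0% of all genes) passed the limma threshold for CHIR, with 2 arrays per treatment. At an unadjusted p under 0.05 there were 4 of the 8 genes and 1613 of all. The smallest adjusted p of the 8 was that of Dnmt3a (log2 difference -1.08, SE 0.18, limma adjusted p = 0.493, lower in 2 of 2 states). The median log2 difference of the 8 genes was -0.50, against -0.02 over all genes.

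When PD was added to CHIR, Dnmt3l in mESC differed most. In mESC, 1 of the 8 genes was lower by 2-fold or more and 0 were higher, where 0.523% of all genes were lower and 0.252% higher by as much. That gene was Dnmt3l, at 119 with CHIR and PD, against 484 with CHIR, a log2 difference of -2.02. In EpiLC its difference was 0.21, between 2 values near the lower quartile of the arrays. Differences of such dim values are compressed, and the part of this was not tested. Dnmt3b was lower by a similar amount in both states, with log2 differences of -0.70 in EpiLC and -0.66 in mESC. Dnmt3a was at 0.19 in EpiLC and -0.44 in mESC. No gene of the 8 reached 2-fold in EpiLC, where 1.04% of all genes were higher and 1.01% lower by as much.

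The Tet genes and the maintenance genes differed by less than 0.5 in size when PD was added. Tet1 was at 0.20 in EpiLC and -0.15 in mESC, and Tet2 at -0.29 in EpiLC and 0.48 in mESC. In mESC, Tet2 was at 493 with both inhibitors, against 352 with CHIR, and so again at its untreated intensity of 487. Uhrf1 was at -0.36 in EpiLC and 0.00 in mESC. In the limma fit over both states, 0 of the 8 genes passed for PD added to CHIR, where 0.018% of all genes did, and 0 of the 8 had an unadjusted p under 0.05, against 1280 of all 22180. The largest fitted differences in size were those of Dnmt3l (-0.90, SE 0.48, limma adjusted p = 0.85) and Dnmt3b (-0.68, SE 0.29, limma adjusted p = 0.843).

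**Figure D4:**
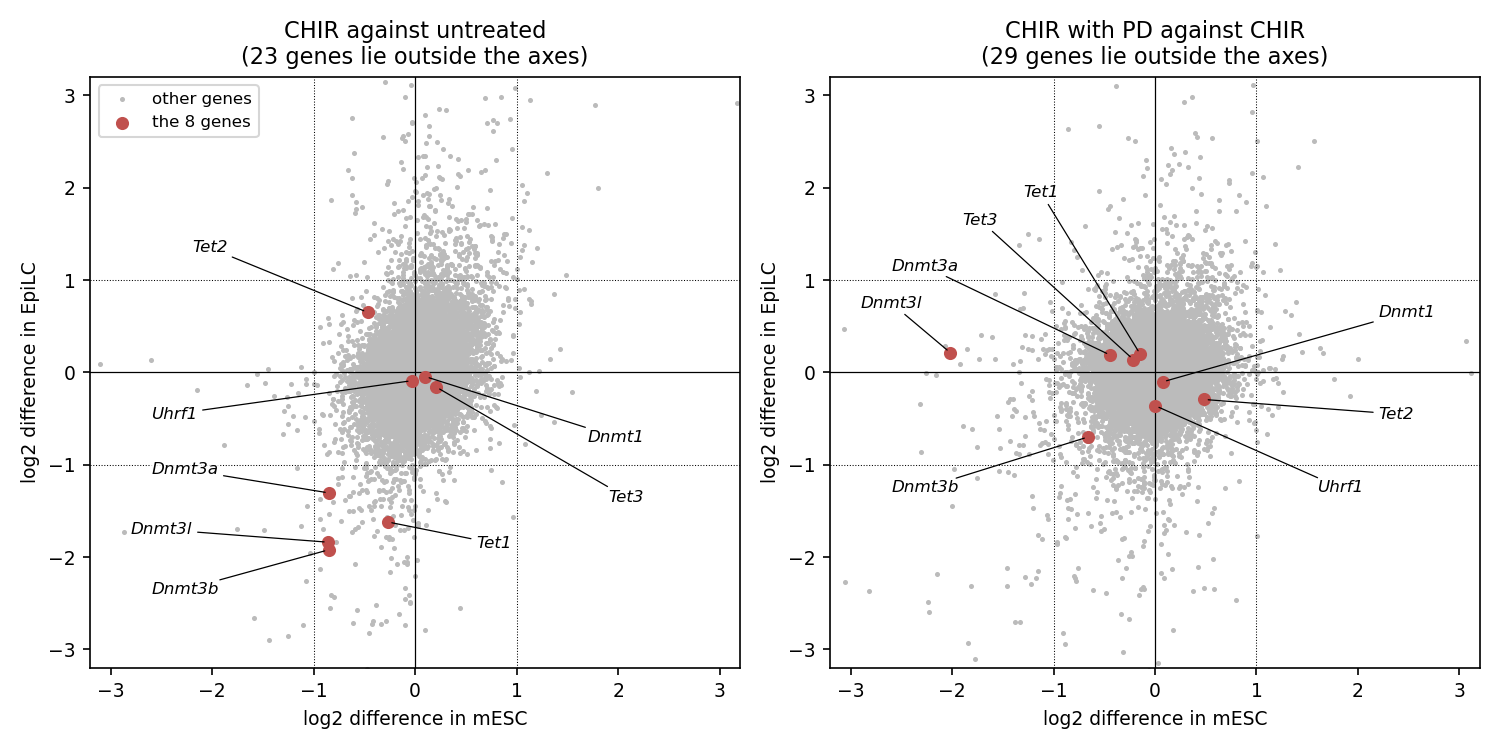
Log2 difference in EpiLC (vertical axis) against that in mESC (horizontal axis) for CHIR against untreated (left) and CHIR with PD against CHIR (right), 1 pair of arrays per axis. Grey points are all other genes, red points the 8 genes, and dotted lines mark 2-fold. At the left Dnmt3a, Dnmt3b and Dnmt3l lie low on both axes and Tet1 low in EpiLC. At the right Dnmt3l lies at -2.02 in mESC and 0.21 in EpiLC.

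With both inhibitors, Dnmt3a, Dnmt3b and Dnmt3l had the lowest intensities among the 3 mESC cultures. In mESC, 3 of the 8 genes were at least 2-fold lower and 0 were higher (0.848% of all genes were lower and 0.618% higher), namely Dnmt3l by 7.33-fold, Dnmt3b by 2.85-fold and Dnmt3a by 2.44-fold. In EpiLC, 4 of the 8 were at least 2-fold lower and 0 were higher (1.49% of all genes were lower and 2.62% higher), with Dnmt3b at -2.62, Dnmt3l at -1.63, Tet1 at -1.42 and Dnmt3a at -1.12 on the log2 scale. The EpiLC value of Dnmt3l was -0.99 with the offset of 64. Dnmt3b thus had the larger difference in EpiLC and Dnmt3l the larger in mESC, and Dnmt3a had similar ones. The markers of EpiLC were lower as well, with 4 of 7 at least 2-fold lower and 1 higher and a sum of 1482 in EpiLC with both inhibitors, against 3848 in untreated EpiLC. Of the core pluripotency genes 2 of 6 were at least 2-fold lower and 1 higher in that culture, with a sum of 4417, against 7334 in untreated EpiLC. Of 5 neuroectoderm genes 1 was at least 2-fold higher (Sox1, at 885 against 53.5 in untreated EpiLC) and 0 lower, with a sum of 1776, against 677 in untreated EpiLC. The fibroblast genes summed to 7003, against 3092.5 in untreated EpiLC, with 2 of 8 at least 2-fold higher and 0 lower. Those 2 were Fn1 (2306 against 918) and Vim (3268 against 1118), while Col1a1 (370 against 198) stayed under 2-fold. None of the 7 primitive endoderm genes passed 2-fold. The part of these genes in the differences was not tested. These comparisons share the untreated arrays with those of CHIR.

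In the fit over both states, Dnmt3b had a log2 difference of -2.06 (SE 0.29, limma adjusted p = 0.115), Dnmt3a one of -1.20 (SE 0.18, limma adjusted p = 0.115) and Dnmt3l one of -2.25 (SE 0.48, limma adjusted p = 0.179). All 3 were lower in 2 of 2 states, and none passed the threshold, which 0.0271% of all genes did (0 rose and 6 fell, or 1 and 6 with arrays centred on their median). At an unadjusted p under 0.05 there were 4 of the 8 genes, these 3 and Tet1 (-0.92, SE 0.32, limma adjusted p = 0.296), and 3173 of all 22180. With trend and robust moderation 53 genes passed and still 0 of the 8, with limma adjusted p = 0.065 for Dnmt3a.

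Genes around the enzymes were described with 4 lists, of which 49 of 58 genes were measured by a probe with 1 symbol. Between the states 1 of the 49 rose and 5 fell in the limma fit (4.15% of all genes in each direction), and 4 of the 5 that fell were among the 18 measured partners and regulators of the enzymes. Zfp57, a zinc finger protein that keeps methylation at imprinted regions, fell by 2.16 (limma adjusted p = 0.00252), with intensities between 292 and 420.4 in EpiLC and between 1248 and 1942 in mESC. Prdm14, which represses the de novo genes in mouse stem cells, fell by 2.15 (limma adjusted p = 0.00523). Its intensity was between 31.2 and 36.6 in EpiLC and between 120.2 and 238 in mESC, with the highest value under both inhibitors. Dppa3, which shields DNA from methylation changes in the mouse oocyte and zygote, fell by 1.82 (limma adjusted p = 0.005), and Rif1, a replication timing factor, fell by 0.75 (limma adjusted p = 0.035).

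Among 11 genes of active demethylation and base excision, the DNA glycosylase Neil3 rose by 0.66 (limma adjusted p = 0.0213) and the cytidine deaminase Apobec1 fell by 0.56 (limma adjusted p = 0.0491). None of 8 methylation readers and none of 12 genes of methyl donor and cofactor supply passed between the states, and 23 of the 49 genes had an unadjusted p under 0.05, as did 5317 of all 22180 genes. For the 3 treatment comparisons 0 of the 49 passed in the limma fit, with 6, 5 and 14 at an unadjusted p under 0.05 in the order CHIR, PD on top of CHIR, and both against untreated. Over all 22180 genes these counts were 1613, 1280 and 3173.

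Single arrays showed a few large differences in these lists. Gadd45b and Gadd45g, stress-induced proteins linked to DNA repair and demethylation, were the only 2 of the 49 genes at least 2-fold higher when PD was added to CHIR, in EpiLC (1.04% of all genes) as in mESC (0.252%). Gadd45b was at 1255 in EpiLC with CHIR and PD, against 221 with CHIR, and at 746 in mESC with CHIR and PD, against 252 with CHIR. Gadd45g was at 207 with both and 47.6 with CHIR in EpiLC, and at 257 with both and 123 with CHIR in mESC. Uhrf2, the paralogue of Uhrf1, was the only 1 of the 49 at least 2-fold higher with CHIR in EpiLC (1.77% of all genes), at 952 with CHIR and 436 untreated, and it was at 539.9 with CHIR and 346 untreated in mESC (log2 difference 0.64). Its sign was thus opposite to that of the de novo genes in both states. Hells, a chromatin remodeller needed for methylation, is named after its values were seen and was at 1002 with CHIR, against 1969 untreated, in EpiLC, and at 1549 with CHIR, against 1914 untreated, in mESC. The serine hydroxymethyltransferases of one-carbon metabolism also passed 2-fold in EpiLC, Shmt2 at 1320.2 with both inhibitors and 2894 with CHIR, and Shmt1 at 245 with both and 492 untreated. Between untreated EpiLC and untreated mESC, 0 of the 49 were at least 2-fold higher and 5 lower, against 1.47% and 2.3% of all genes (Gadd45b, Gadd45g, Zfp57, Prdm14 and Dppa3). Myc, a transcription factor, was at 721 untreated, 276 with CHIR and 150 with both inhibitors in EpiLC. In mESC it was at 710 untreated, 439 with CHIR and 169.9 with both.

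The genes whose pattern was most like that of each enzyme gene were found by Pearson correlation of log2 intensity over the 6 arrays, among 2841 genes with a log2 range of at least 1. With 6 points that share the 2 states and 3 treatments, such values describe the arrays only. Tet1 was most like Pipox (r = 0.999), Nmnat2 (r = 0.999) and Fpgs (r = 0.998). Tet2 was most like Fbxo15 (r = 0.998), a gene known for high expression in mouse stem cells, which was at 56.6, 84.6 and 76.0 in EpiLC and at 1073.5, 851 and 1134 in mESC. Mras (r = 0.995) and Trim13 (r = 0.995) followed.

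Dnmt3l was most like Tst (r = 0.990), Bnc2 (r = 0.987) and Enox1 (r = 0.986). Enox1 was at 230.2 in mESC with CHIR and PD, against 1099.9 with CHIR, and at 55.9 and 56.4 in the same EpiLC cultures. Dnmt3b was most like Ddx4 (r = 0.982), a germ cell RNA helicase gene, Celsr2 (r = 0.980) and Prelid3a (r = 0.979), and Dnmt3a was most like Snai3 (r = 0.989), Uprt (r = 0.984) and Tcfl5 (r = 0.975). Ddx4 was at 369.9 in untreated EpiLC and 227 in untreated mESC, and with both inhibitors at 145 in EpiLC and 154 in mESC. For the genes of small range, the highest correlations were those of Dnmt1 with Bvht (r = 0.991), Dmrt1 (r = 0.985) and Scn3a (r = 0.982), of Uhrf1 with Ddx43 (r = 0.995), Zscan4d (r = 0.994, 1 of a family of near-identical genes) and Btbd19 (r = 0.992), and of Tet3 with Khdrbs3 (r = 0.968), Nap1l2 (r = 0.951) and Ptbp2 (r = 0.944). Among the enzyme genes, r was 0.80 between Dnmt3a and Dnmt3b, -0.09 between Dnmt3a and Dnmt3l, and 0.91 between Dnmt3l and Tet1. Other pairs were about as strong as the last, with -0.93 for Tet2 and Tet3, 0.90 for Uhrf1 and Tet1, and 0.89 for Dnmt1 and Uhrf1.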

How the data were processed

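RNA from 6 cultures was measured on 6 Affymetrix Mouse Gene 2.0 ST arrays, with GeneSpring GX 11.5 as the software, per the series' design text. The deposited values are linear intensities, with nearly equal quartiles on all arrays. Whether and how the authors normalised them is not given in the sources used here. On each array the lowest value was 16, which acts as an offset under the logarithm. Of 33793 probes, 23521 carried 1 gene symbol, and log2 intensities were averaged per symbol (22180 genes); each of the 8 enzyme genes had 1 probe. One model of state plus treatment was fitted to all genes with limma 3.58.1 in R 4.3.3 (lmFit, eBayes), with Benjamini-Hochberg adjustment over all genes and a two-sided threshold of 0.05. It was tested on simulated data with additive effects and independent noise. That test does not cover the departures from additive effects that make up the residual here. Pairs of single arrays give log2 differences only, called at 2-fold. The p-values test the state and treatment effects, set against a residual that comes from departures from additive effects between cultures. The members and lists were chosen with earlier results of these data known. Text names all 8 members, list genes called or at least 2-fold different, and for each member the 3 genes of highest correlation, passing over predicted, clone and small RNA symbols. Alternatives were the offset under the logarithm (4 or 64 instead of 16), quantile normalisation, median centring, the brightest probe, leaving out dim genes, the moderation, and leaving out each pair of arrays. Promoter sequences are from RefSeq (GRCm38.p6), where all 8 members matched by symbol. The build used for the arrays is not given in the sources used here.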

Additional observations from a re-analysis of the deposited data

Results flagged for a closer look

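Of 24 pairs of responses (8 genes, 3 treatment comparisons), 11 had opposite signs in the 2 states, on 1 array per group. The share of all genes with opposite signs was not counted, so this count is not a result about the 8 genes. The response to both inhibitors is the sum of the other responses, so the 24 pairs are not separate observations. The differences between the states' responses were not tested, and most are small. All values are EpiLC response minus mESC response on the log2 scale. For CHIR against untreated, the difference was 1.12 for Tet2 (0.65 in EpiLC and -0.47 in mESC), -0.36 for Tet3 and -0.14 for Dnmt1. For PD added to CHIR, it was 2.23 for Dnmt3l (0.21 in EpiLC and -2.02 in mESC), -0.78 for Tet2 (-0.29 in EpiLC and 0.48 in mESC), 0.62 for Dnmt3a, -0.36 for Uhrf1, 0.35 for Tet3, 0.34 for Tet1 and -0.18 for Dnmt1. The EpiLC intensities of Dnmt3l here (36.65 and 42.5) lay near the lower quartile. Differences of such dim values are compressed, and the part of this was not tested. For both inhibitors against untreated, the difference was -0.32 for Dnmt1.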

How the results depend on the processing

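Of 280 fitted values of the 8 genes under the alternatives, 266 kept their sign and their side of the threshold. Many of these signs could not turn. Each of the 8 genes has 1 probe, so taking the brightest probe left their estimates as they were. Leaving out dim genes or changing the moderation alters only the p-values of a gene, not its estimate. The 4 state calls became 0 without moderation of the variances and 2 (Tet1 and Tet2) without the untreated pair of arrays. Signs turned for 5 values, none of them called, namely Dnmt3b in EpiLC against mESC without the untreated pair (-0.0319), Tet2 for CHIR with the offset of 64 (-0.0316), Tet3 for CHIR with quantile normalisation (-0.0019), and, with arrays centred on their median, Dnmt1 for PD added to CHIR (0.0165) and Tet3 for both inhibitors (0.0225). Uhrf1 between the states passed with the offset of 64 (limma adjusted p = 0.0493), with dim genes left out (0.0458) and with trend and robust moderation (0.0264). Over its 11 alternatives the adjusted p lay between 0.0264 and 0.321. The cause of these changes was not tested. Of 432 single-pair values, 421 moved by less than the fit's residual SD. Those with the brightest probe or with dim genes left out are in this count and could not move. Tet1 in the untreated pair was at -0.9985 with arrays centred on their median and so just under 2-fold.

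Counts over all genes moved more. The 1841 state calls became 1016 with an offset of 4, 0 without moderation, 945 without the CHIR pair and 1209 without the CHIR with PD pair. The 4 calls for PD added to CHIR became 1 with an offset of 64, 7 with trend and robust moderation and 0 without moderation. The 6 calls for both inhibitors against untreated became 1 with an offset of 4, 1 with 64, 53 with trend and robust moderation and 0 without moderation. Counts of genes at least 2-fold different with offsets of 4 and 64 were 1013 and 343 (CHIR, EpiLC), 894 and 255 (PD added, EpiLC), 1532 and 511 (both, EpiLC), 300 and 27 (CHIR, mESC), 425 and 73 (PD added, mESC) and 681 and 157 (both, mESC). For EpiLC against mESC they were 447 (untreated) and 663 (CHIR) with 64, and 2236 and 804 (both inhibitors) with 4 and 64. No paired analysis was possible because the labels give no replicate numbers and each group is 1 array, so the only pairing is that of the states by treatment, which the fit holds. One array per group limits the precision, as do the dim values in EpiLC of Tet2 (46.6 to 73.1) and, with inhibitor, of Dnmt3l (36.65 and 42.5).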
